A study of Mus musculus with 14 samples.

Results

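The genes of the cell division programme in mouse lung are described here, across lungs that received carbon fibre and lungs that received vehicle. They are 45 named genes of DNA replication and mitosis, taken as a list that was set with earlier results of these data known. Every array probe whose RefSeq accession maps to one of them was counted. The array carried 62 such probes among its 41174 probes, and all 45 genes were present among the 17178 genes that could be named. Of these, 43 genes and 56 probes gave enough signal to be tested, among 14468 genes and 29269 probes tested in all. Hmmr, a spindle-associated protein and hyaluronan receptor, and Ttk, a kinase of the spindle checkpoint, were the exceptions. Each was well above its background on 1 of 14 arrays, a Ctrl array, and entered no comparison.

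The lungs came from male C57BL/6N mice taken 6 months after intratracheal treatment, which for the fibre groups was 200 µg per mouse. VCF lungs (4 mice) received carbon fibre as it was before recycling, CCF lungs (3 mice) received the fibre after carbonization, RCF lungs (4 mice) received the fibre after firing, and Ctrl lungs (3 mice) received phosphate-buffered saline (PBS). The ages of the mice at dosing are not given in the sources used here. Each lung was hybridised to 1 single-colour Agilent array, and a level below is the log2 signal minus the log2 of that array's 75th percentile, so that a level of 0 equals the 75th percentile probe.

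A cell about to divide first loads the MCM helicase onto replication origins with the help of Cdc6, makes deoxynucleotides and copies its DNA, and then switches on a second set of genes for mitosis: cyclins and Cdk1, the kinetochore, the spindle and the checkpoint that waits for all chromosomes to attach. Transcription of the replication genes is mainly driven by E2F factors at the start of S phase, and that of the mitotic genes by a complex that binds the cell cycle homology region (CHR) and by NF-Y at CCAAT boxes. In an adult lung at rest few cells divide. In bulk tissue, fewer dividing cells and less RNA per cell cannot be told apart.

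The signal of the arrays differed by slide. The 75th percentile signal ran between 724.7 and 955.3 units on slides 3 and 4 of the 4 slides. On slides 1 and 2 it ran between 1083 and 1346 units. Ctrl replicate 1 lay on slide 3, and Ctrl replicates 2 and 3 lay on slides 2 and 1. On the 14 arrays, 63.07 to 70.5% of probes were well above background and no spot was saturated. Any 2 arrays correlated at 0.968 to 0.99 over the tested probes. All 8 markers of lung cells listed for the check were well above background on all 14 arrays, with a summed level of 1180 to 1550 in VCF lungs, 1160 to 1520 in CCF lungs, 1170 to 1480 in RCF lungs and 1140 to 1590 in Ctrl lungs, where 1 is the 75th percentile signal.

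The proximal promoters of 5 members are shown because they carry the motifs of the 2 waves: Cdc6 and Mcm5 of replication, and Bub1b, Mki67 and Top2a of mitosis and chromosomes. Each runs 5′ to 3′ on the gene's strand from 250 bases before to 50 bases after the RefSeq start in GRCm38.p6. Capitals mark matches on either strand to the CHR, searched as TTTGAA, to the CCAAT box, and to 4 forms of the E2F site, and matches may overlap. The first of these forms was spelled TTCCCGC, the form that follows the consensus with a different core was spelled TTGGCGC, a further form of similar composition was spelled TTCGCGC, and the remaining form, which completes the search, was spelled TTGCCGC.

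Cdc6 promoter, chr11:98907901-98908200, plus strand: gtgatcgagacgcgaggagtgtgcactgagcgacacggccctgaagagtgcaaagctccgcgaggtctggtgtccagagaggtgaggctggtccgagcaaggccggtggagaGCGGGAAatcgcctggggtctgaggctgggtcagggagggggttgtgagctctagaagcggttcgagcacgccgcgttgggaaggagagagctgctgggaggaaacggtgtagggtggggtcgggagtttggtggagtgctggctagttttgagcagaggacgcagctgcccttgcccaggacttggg

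Mcm5 promoter, chr8:75109259-75109558, plus strand: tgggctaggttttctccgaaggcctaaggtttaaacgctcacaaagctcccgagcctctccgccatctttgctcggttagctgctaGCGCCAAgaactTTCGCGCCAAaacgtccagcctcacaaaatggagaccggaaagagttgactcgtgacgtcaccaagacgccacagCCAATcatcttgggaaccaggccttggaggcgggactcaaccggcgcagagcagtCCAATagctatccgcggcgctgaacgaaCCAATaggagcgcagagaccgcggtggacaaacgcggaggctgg

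Bub1b promoter, chr2:118597961-118598260, plus strand: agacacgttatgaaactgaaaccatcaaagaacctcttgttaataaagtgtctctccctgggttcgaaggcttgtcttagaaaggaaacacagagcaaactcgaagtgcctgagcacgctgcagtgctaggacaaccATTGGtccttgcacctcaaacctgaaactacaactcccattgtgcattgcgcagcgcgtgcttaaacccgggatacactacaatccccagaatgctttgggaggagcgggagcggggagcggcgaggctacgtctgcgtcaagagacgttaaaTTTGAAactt

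Mki67 promoter, chr7:135716330-135716629, minus strand: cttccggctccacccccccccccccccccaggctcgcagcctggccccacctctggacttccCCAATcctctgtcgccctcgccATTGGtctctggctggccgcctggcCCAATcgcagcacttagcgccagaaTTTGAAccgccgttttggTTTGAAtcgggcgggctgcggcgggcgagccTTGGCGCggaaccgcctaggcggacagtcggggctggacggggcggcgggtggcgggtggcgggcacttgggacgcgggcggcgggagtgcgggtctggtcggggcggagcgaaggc

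Top2a promoter, chr11:99024140-99024439, minus strand: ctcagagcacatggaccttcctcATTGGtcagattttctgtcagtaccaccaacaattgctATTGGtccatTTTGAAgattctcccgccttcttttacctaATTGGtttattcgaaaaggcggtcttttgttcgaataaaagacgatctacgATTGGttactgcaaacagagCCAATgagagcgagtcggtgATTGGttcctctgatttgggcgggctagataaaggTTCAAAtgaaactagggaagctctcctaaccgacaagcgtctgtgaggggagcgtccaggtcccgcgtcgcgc

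Promoters were listed for 39 of the 45 genes, 42 promoters in all. The CHR letters occurred in 23 of them (54.8%), CCAAT in 35 (83.3%) and the E2F letters in 14 (33.3%). Over all 32851 listed promoters these shares were 17.9%, 37.4% and 9.57%, and over the 21263 promoters of protein-coding genes 16.0%, 38.2% and 12.1%. Among the members, the CHR letters stood in 2 of 13 promoters of replication and nucleotide genes (15.4%) and in 21 of 29 others (72.4%), and the E2F letters in 8 of 13 (61.5%) and 6 of 29 (20.7%). CCAAT was frequent in both, in 10 of 13 (76.9%) and 25 of 29 (86.2%). A match describes these letters in this window and is not evidence of binding.

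No cell division gene passed the test in any comparison with Ctrl lungs, but nearly all measured members stood slightly lower in fibre-treated lungs. The median difference over the 43 genes was -0.24 in VCF lungs, -0.19 in CCF lungs and -0.33 in RCF lungs on the log2 scale, where the median over all 14468 genes was -0.02, -0.04 and 0. The difference was below 0 for 43 of 43 genes in VCF lungs (54.2% of all genes), for 40 of 43 in CCF lungs (58.7%) and for 41 of 43 in RCF lungs (50.3%). The 3 comparisons share the same 3 Ctrl arrays. The size and spread of these differences are in the plot of differences from Ctrl by gene. With normexp background correction the VCF median was -0.11, against an all-gene median of -0.01.

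The test was limma over all 4 groups, two-sided, with Benjamini-Hochberg adjustment over the 29269 probes and a threshold of 0.05. Of all genes it called 0.00691% in VCF against Ctrl, 0% in CCF against Ctrl and 0% in RCF against Ctrl. The smallest adjusted p of a member was 0.307 in VCF lungs, 0.75 in CCF lungs and 0.303 in RCF lungs. At an unadjusted p under 0.05, 1 of 43 members was lower in VCF lungs (2.79% of all genes), 1 in CCF lungs (3.12%) and 8 in RCF lungs (3.03%). None was higher, where 2.63% of all genes were higher in VCF lungs, 2.52% in CCF lungs and 3.08% in RCF lungs. The 8 in RCF lungs were Cdc6, Mki67, Ccna2, Tpx2, Birc5, Ube2c, Cenpf and Cdca8.

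**Figure D1:**
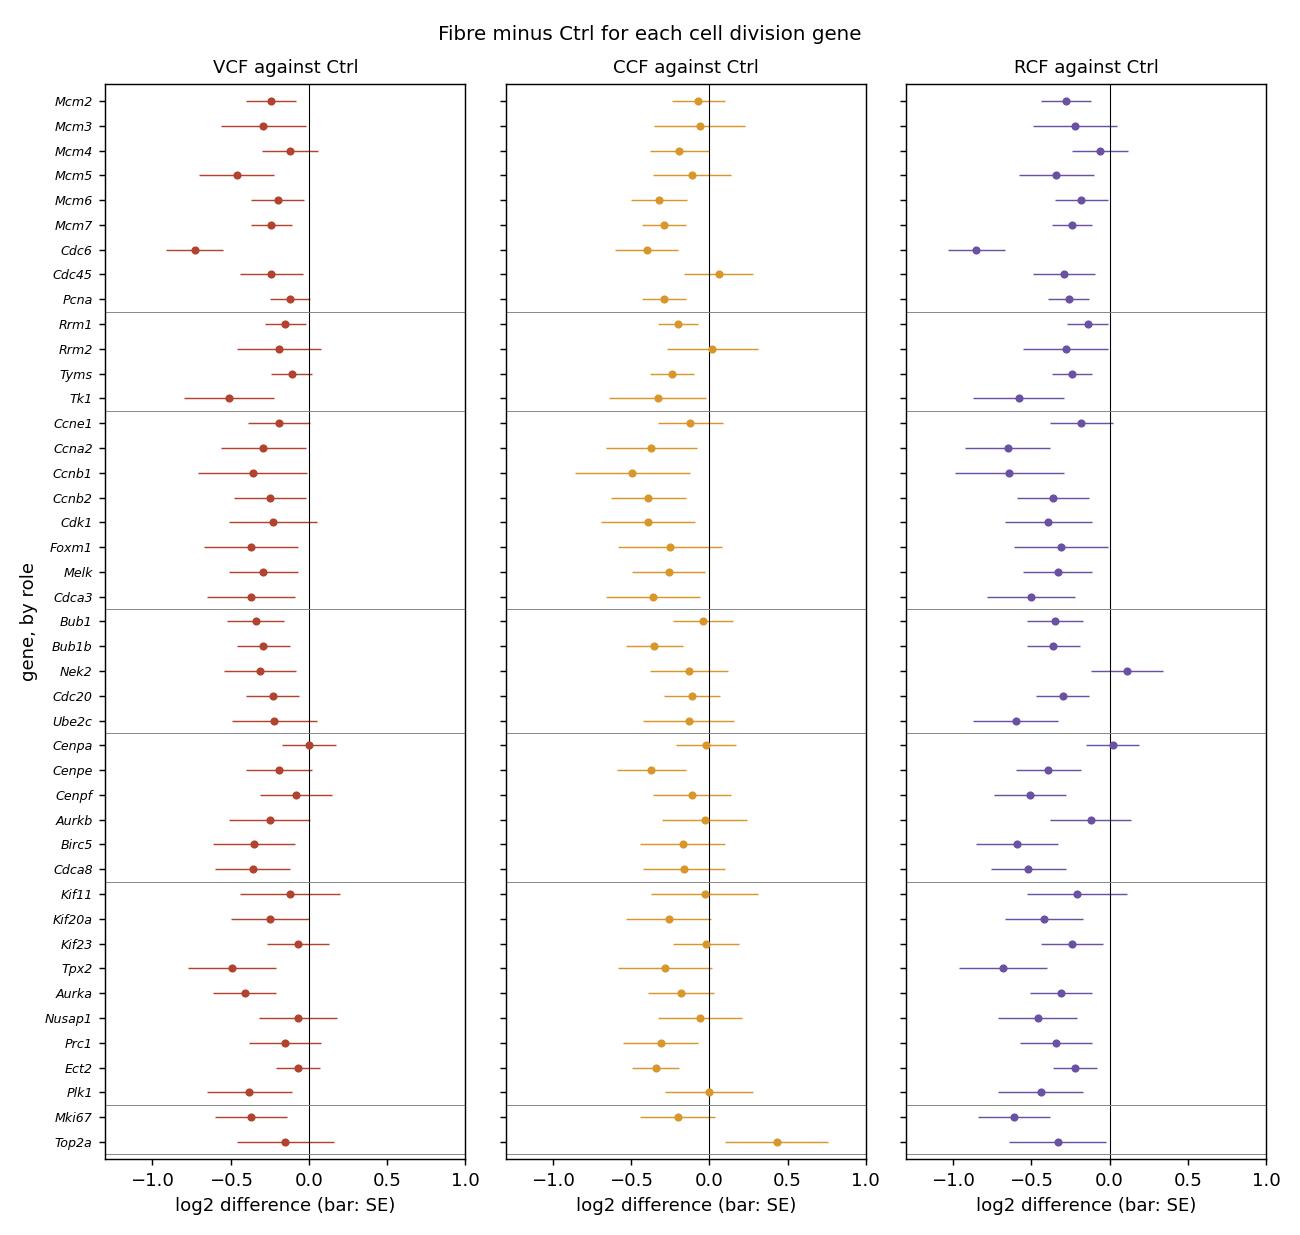
Difference from Ctrl (log2) of each tested cell division gene, brightest probe, in VCF, CCF and RCF lungs, ordered by role. Medians over the 43 genes were -0.24 in VCF lungs, -0.19 in CCF lungs and -0.33 in RCF lungs, and Cdc6 had the lowest difference in VCF and in RCF lungs.

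The size of this common offset was set against the spread of single mice. For each array, the median over the 43 genes was taken after subtracting each gene's Ctrl mean. It was -0.33, -0.45, -0.14 and -0.07 in VCF replicates 1 to 4, -0.23, -0.39 and 0.17 in CCF replicates 1 to 3, and -0.60, -0.38, -0.15 and -0.20 in RCF replicates 1 to 4, against 0.22, 0.16 and -0.37 in Ctrl replicates 1 to 3. Ctrl replicate 3 was lower than 7 of the 11 fibre arrays, and every fibre group overlapped the Ctrl lungs. The means were -0.25 ± 0.18 in VCF lungs (SD, n = 4), -0.15 ± 0.29 in CCF lungs (SD, n = 3) and -0.33 ± 0.21 in RCF lungs (SD, n = 4), against 0 ± 0.32 in Ctrl lungs (SD, n = 3).

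**Figure D2:**
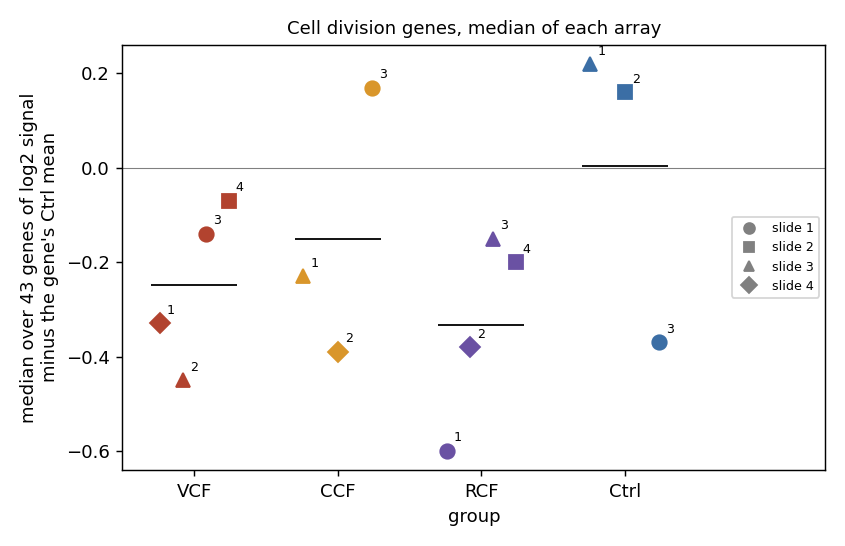
Median over the 43 cell division genes of the level minus the gene's Ctrl mean (log2), 1 point per array, with replicate numbers beside the points, bars at group means and marker shapes for the slide. Ctrl replicates 1 and 2 and CCF replicate 3 lie above 0, and Ctrl replicate 3 at -0.37 lies among the lower fibre arrays.

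Which array held the extreme of each gene followed the same pattern. The highest of the 14 levels was in Ctrl replicate 1 for 19 genes, in Ctrl replicate 2 for 13, in CCF replicate 3 for 9 and in VCF replicates 3 and 4 for 1 each. The lowest was in RCF replicate 1 for 21 genes and in VCF replicate 2 for 8. Over all genes, Ctrl replicate 1 was highest for 12.1% and lowest for 10.2%, Ctrl replicate 2 highest for 7.02% and lowest for 7.25%, and CCF replicate 3 highest for 7.74% and lowest for 14.6%. RCF replicate 1 was lowest for 2.77% of all genes and VCF replicate 2 for 9.3%. Ctrl replicate 1 exceeded all 11 fibre arrays for 25 of the 43 genes and Ctrl replicate 2 for 22, but Ctrl replicate 3 for 1, with 40 genes inside the fibre range and 2 below it. The shares over all genes that would go with these counts against the fibre range were not computed.

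**Figure D3:**
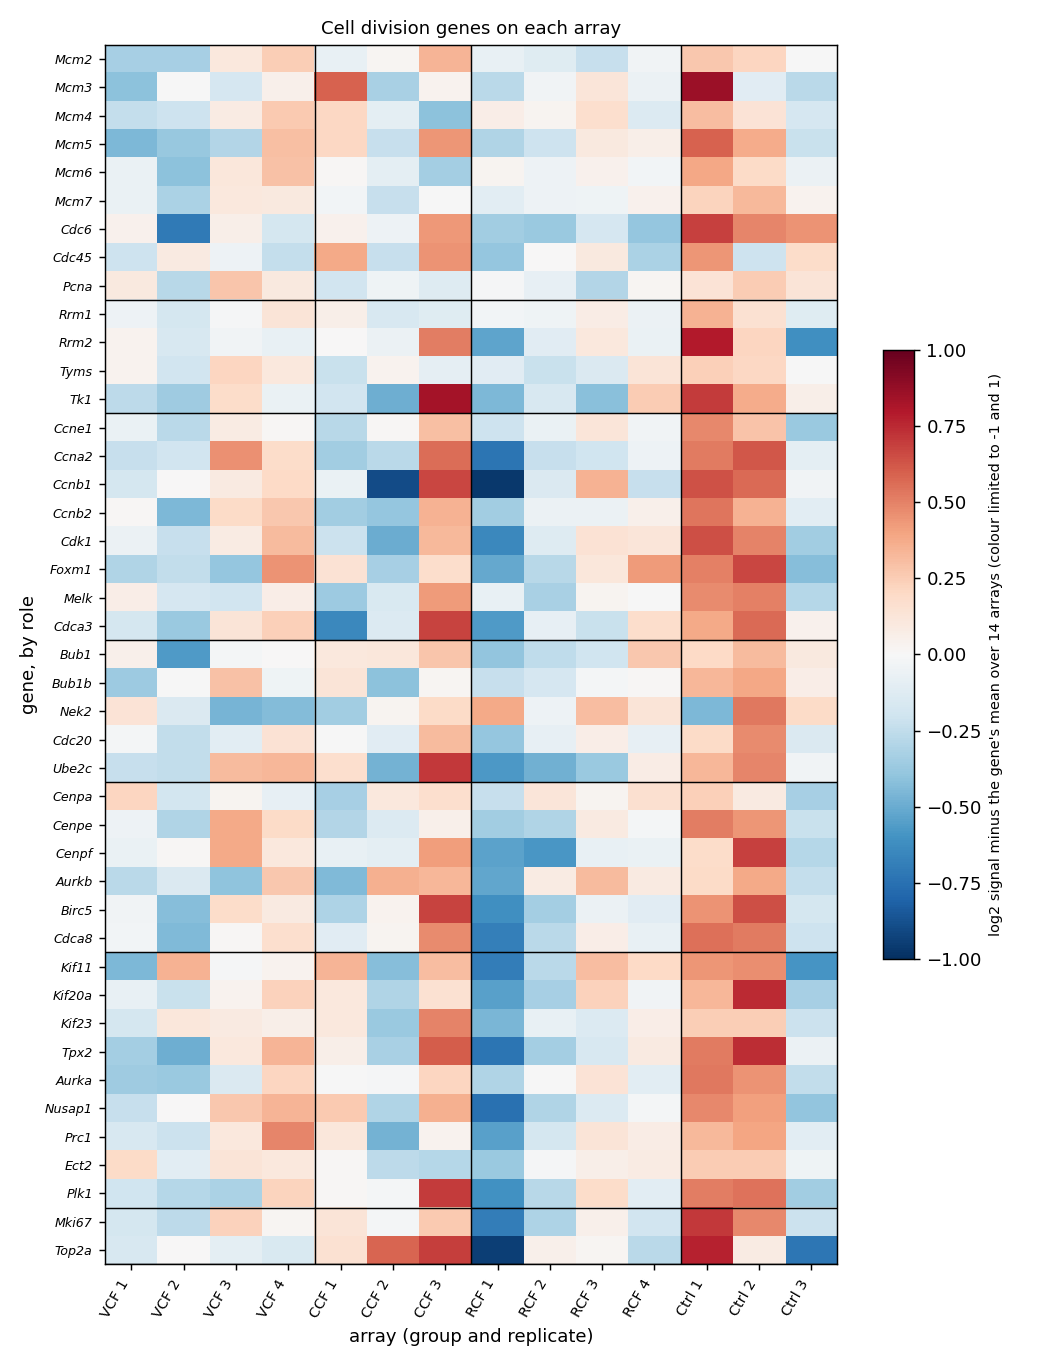
Level of each tested cell division gene (rows, by role) on each of the 14 arrays (columns, VCF, CCF, RCF, Ctrl), as log2 signal minus the gene's mean over 14 arrays. Ctrl replicates 1 and 2 and CCF replicate 3 are high over most rows, and RCF replicate 1 is low over most rows outside the replication genes.

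The counts therefore turned on single mice. Without Ctrl replicate 3, the members lower at an unadjusted p under 0.05 numbered 15 in VCF lungs (3.54% of all genes in the same model), 11 in CCF lungs (3.03%) and 25 in RCF lungs (2.95%), and the medians were -0.44, -0.37 and -0.56. The RCF count of 8 became 1 when RCF replicate 1 (2.09% of all genes), Ctrl replicate 1 (2.89%) or Ctrl replicate 2 (3.31%) was left out. It became 3 without RCF replicate 2 (1.96%), 5 without CCF replicate 1 (3.06%), 6 without VCF replicate 4 (2.9%) and 7 without VCF replicate 1 (2.84%). The RCF count rose to 9 without VCF replicate 2 (2.95%) or CCF replicate 2 (3.34%), 10 without CCF replicate 3 (3.23%) and 11 without RCF replicate 4 (3.48%). The VCF median was -0.15 with Ctrl replicate 2 left out. The CCF median was -0.12 with CCF replicate 2 left out, -0.10 with Ctrl replicate 1 left out and -0.11 with Ctrl replicate 2 left out. The counts of 1 in VCF and in CCF lungs became 4 with VCF replicate 4 left out (4.08% of all genes) and 6 with CCF replicate 3 left out (4.15%). Over all fibre lungs together the count of 3 became 22 without Ctrl replicate 3 (3.46% of all genes) and 11 without CCF replicate 3 (3.63%). It became 1 without CCF replicate 2 (2.51%), RCF replicate 1 (2.43%), Ctrl replicate 1 (3.15%) or Ctrl replicate 2 (2.60%). No member passed the adjusted threshold with any 1 array left out.

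The 14 arrays lay on 4 slides, of which slide 4 held no Ctrl array. Within slides the median difference from Ctrl over the members was 0.17, -0.24 and -0.64 in VCF lungs on slides 1, 2 and 3, 0.50 and -0.39 in CCF lungs on slides 1 and 3, and -0.24, -0.32 and -0.39 in RCF lungs on slides 1, 2 and 3. The difference of VCF and CCF lungs thus had the opposite sign on slide 1, the slide of Ctrl replicate 3, while RCF lungs were lower on each of the 3 slides. Each of these is 1 mouse against 1 mouse. With the slide as a block, the medians were -0.20 in VCF lungs, -0.09 in CCF lungs with 28 of 43 genes below 0, and -0.28 in RCF lungs, and the RCF count of 8 became 4 (3.74% of all genes).

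Cdc6, the factor that loads the MCM helicase onto origins, differed the most among the members in VCF and in RCF lungs. Its brighter probe had levels of -3.57, -4.32, -3.56 and -3.79 in VCF lungs, -3.57, -3.67 and -3.18 in CCF lungs and -3.96, -3.99, -3.78 and -4.00 in RCF lungs, against -2.93, -3.13 and -3.17 in Ctrl lungs. All 11 fibre arrays lay below the 3 Ctrl arrays, by 0.01 between CCF replicate 3 and Ctrl replicate 3. Across all genes, 0.373% had every fibre array below every Ctrl array, and Cdc6 was the 1 member that did.

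The Cdc6 difference from Ctrl was -0.73 in VCF lungs (SE 0.18, limma adjusted p = 0.307), -0.40 in CCF lungs (SE 0.20, adjusted p = 0.766) and -0.85 in RCF lungs (SE 0.18, adjusted p = 0.303). Over all fibre lungs it was -0.66 (SE 0.16, adjusted p = 0.391). In that joint comparison 43 of 43 members were below 0 (56% of all genes) with a median of -0.26, no member passed (0.00691% of all genes), and at an unadjusted p under 0.05 Cdc6, Mcm7 and Bub1b were lower (2.88%) and none higher (2.92%). Within slides it was -0.38, -0.66 and -1.39 in VCF lungs on slides 1, 2 and 3, -0.01 and -0.64 in CCF lungs on slides 1 and 3, and -0.79, -0.87 and -0.85 in RCF lungs on slides 1, 2 and 3. With normexp background correction in place of the scanner's own, the Cdc6 differences were -0.27 in VCF lungs, -0.67 in CCF lungs and -0.40 in RCF lungs. Its dimmer probe overlapped between the groups, with levels of -4.92, -5.30, -5.27 and -4.88 in VCF lungs, -5.07, -4.76 and -5.05 in CCF lungs and -4.92, -4.97, -4.60 and -4.94 in RCF lungs, against -4.11, -4.51 and -4.94 in Ctrl lungs.

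The other 8 genes of replication forks and licensing stood closer to Ctrl. The median over all 9 genes of this role was -0.24 in VCF lungs, -0.19 in CCF lungs and -0.26 in RCF lungs. Mcm7, a subunit of the helicase, had 2.40, 2.15, 2.57 and 2.56 in VCF lungs, 2.44, 2.23 and 2.46 in CCF lungs and 2.36, 2.41, 2.42 and 2.51 in RCF lungs, against 2.69, 2.79 and 2.50 in Ctrl lungs. It overlapped Ctrl lungs in VCF and RCF lungs and not in CCF lungs, where it differed by -0.29 (SE 0.14, adjusted p = 0.75).

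Mcm5, another helicase subunit, had -0.10, -0.03, 0.06 and 0.65 in VCF lungs, 0.56, 0.12 and 0.79 in CCF lungs and 0.05, 0.14, 0.45 and 0.41 in RCF lungs, against 0.94, 0.72 and 0.13 in Ctrl lungs. Its difference in VCF lungs was -0.46 (SE 0.24, adjusted p = 0.679). Ctrl replicate 3 lay within the range of each fibre group. Pcna, the sliding clamp of DNA polymerase, had 4.00, 3.62, 4.18 and 4.00 in VCF lungs, 3.71, 3.86 and 3.77 in CCF lungs and 3.89, 3.82, 3.61 and 3.92 in RCF lungs, against 4.04, 4.15 and 4.03 in Ctrl lungs. All CCF and all RCF lungs lay below all Ctrl lungs, with differences of -0.29 (SE 0.14, adjusted p = 0.763) and -0.26 (SE 0.13, adjusted p = 0.955).

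Non-overlap with Ctrl lungs, with each gene at its brightest probe, was found for few members. In VCF lungs it held for Cdc6 and Bub1, 2 of 43 (3.27% of all genes). In CCF lungs it held for Cdc6, Mcm7 and Pcna, 3 of 43 (6.16%), and in RCF lungs for Cdc6, Pcna, Mcm2 and Bub1b, 4 of 43 (4.71%). No member lay wholly above Ctrl lungs, where 3.32% of all genes did in VCF lungs, 3.39% in CCF lungs, 4.78% in RCF lungs and 0.449% over all fibre lungs. The member share in CCF lungs, 6.98%, is near that of all genes, and the shares in VCF and RCF lungs rest on 2 and 4 genes.

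Nucleotide supply, with thymidine kinase Tk1, thymidylate synthase Tyms and the ribonucleotide reductase subunits Rrm1 and Rrm2, had medians of -0.17 in VCF lungs, -0.22 in CCF lungs and -0.26 in RCF lungs. Tk1 showed the widest differences of the 4, with -0.51 in VCF lungs (SE 0.29), -0.33 in CCF lungs (SE 0.31) and -0.58 in RCF lungs (SE 0.29). Its highest level, -0.07, was in CCF replicate 3 and the next, -0.20, in Ctrl replicate 1.

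The cyclins, Cdk1, the mitotic transcription factor Foxm1 and their regulators had medians of -0.29 in VCF lungs, -0.36 in CCF lungs and -0.38 in RCF lungs over 8 genes. Ccna2, the cyclin of S phase and G2, had -0.85, -0.81, -0.16 and -0.44 in VCF lungs, -0.97, -0.89 and -0.06 in CCF lungs and -1.35, -0.85, -0.82 and -0.67 in RCF lungs, against -0.10, 0.00 and -0.72 in Ctrl lungs. Ctrl replicate 3 lay inside the RCF range. The RCF difference was -0.65 (SE 0.27, adjusted p = 0.915).

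Ccnb1, the mitotic cyclin, had the largest spread among CCF mice of all members. Its brightest probe had -3.47, -3.29, -3.21 and -3.10 in VCF lungs, -3.36, -4.19 and -2.63 in CCF lungs and -4.26, -3.44, -2.95 and -3.53 in RCF lungs, against -2.66, -2.73 and -3.33 in Ctrl lungs. Its difference from Ctrl was -0.36 (SE 0.35), -0.49 (SE 0.37) and -0.64 (SE 0.35) in VCF, CCF and RCF lungs, with adjusted p-values of 0.89, 0.851 and 0.971. The dimmer Ccnb1 probes differed by -0.27 and -0.21 in VCF lungs, -0.41 and -0.17 in CCF lungs and -0.81 and -0.65 in RCF lungs. The probe with -0.81 (SE 0.26, limma adjusted p = 0.689) had every RCF lung below every Ctrl lung. Cdk1, the kinase that Ccnb1 activates, had -2.54, -2.71, -2.40 and -2.17 in VCF lungs, -2.70, -2.98 and -2.16 in CCF lungs and -3.13, -2.61, -2.34 and -2.36 in RCF lungs, against -1.84, -1.99 and -2.83 in Ctrl lungs. The groups overlapped, and its differences were -0.23, -0.39 and -0.39 with SEs of 0.28, 0.30 and 0.28.

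In the spindle checkpoint and the anaphase promoting complex pathway, 5 of 6 genes were tested, with medians of -0.29 in VCF lungs, -0.13 in CCF lungs and -0.35 in RCF lungs. Bub1b, the checkpoint protein BubR1, had -2.92, -2.56, -2.27 and -2.60 in VCF lungs, -2.43, -2.97 and -2.54 in CCF lungs and -2.79, -2.73, -2.58 and -2.55 in RCF lungs, against -2.23, -2.17 and -2.49 in Ctrl lungs. RCF lungs did not overlap Ctrl lungs, but VCF and CCF lungs did. The CCF difference was -0.35 (SE 0.18, adjusted p = 0.78).

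Bub1, a checkpoint kinase, had -1.28, -1.89, -1.35 and -1.32 in VCF lungs, -1.22, -1.21 and -1.05 in CCF lungs and -1.72, -1.58, -1.53 and -1.06 in RCF lungs, against -1.13, -1.01 and -1.23 in Ctrl lungs. VCF lungs lay below all Ctrl lungs at this brighter probe, with a difference of -0.34 (SE 0.18, adjusted p = 0.686). The dimmer Bub1 probe, well above background on all 14 arrays, differed by -0.02 in VCF lungs (SE 0.14) and overlapped Ctrl lungs there. In CCF lungs it differed by -0.19 (SE 0.15), without overlap, and in RCF lungs by -0.11 (SE 0.14), with overlap. Ube2c, the ubiquitin-conjugating enzyme that works with the anaphase promoting complex, had a difference of -0.60 in RCF lungs (SE 0.27), where its 4 levels ran between -1.48 and -0.83, against -0.94 to -0.42 in Ctrl lungs. Nek2, a centrosome kinase, was 1 of the 2 members above Ctrl in RCF lungs, by 0.11 (SE 0.23, adjusted p = 0.997). The other was Cenpa.

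The kinetochore genes and chromosomal passengers had medians of -0.22 in VCF lungs, -0.14 in CCF lungs and -0.45 in RCF lungs over 6 genes. Birc5, survivin of the passenger complex, had 0.25, -0.14, 0.47 and 0.38 in VCF lungs, -0.02, 0.32 and 0.96 in CCF lungs and -0.33, -0.05, 0.23 and 0.17 in RCF lungs, against 0.74, 0.93 and 0.11 in Ctrl lungs. CCF replicate 3 was the highest of all 14 and Ctrl replicate 3 lay among the fibre lungs. The RCF difference was -0.59 (SE 0.26, adjusted p = 0.925). Cenpa, the histone H3 variant of centromeres, differed by 0.00 in VCF lungs, -0.02 in CCF lungs and 0.02 in RCF lungs, with SEs of 0.17, 0.19 and 0.17.

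Spindle motors, spindle assembly and cytokinesis had medians of -0.15 in VCF lungs, -0.18 in CCF lungs and -0.34 in RCF lungs over 9 tested genes of 10. Tpx2, which activates Aurora A on the spindle, had -2.64, -2.79, -2.19 and -1.96 in VCF lungs, -2.24, -2.62 and -1.69 in CCF lungs and -3.03, -2.64, -2.46 and -2.21 in RCF lungs, against -1.78, -1.56 and -2.36 in Ctrl lungs. Its RCF difference of -0.68 (SE 0.28, adjusted p = 0.917) came with an overlap, since Ctrl replicate 3 lay inside the RCF range. Aurka, Aurora A itself, had -0.98, -1.0, -0.77 and -0.41 in VCF lungs, -0.63, -0.64 and -0.41 in CCF lungs and -0.93, -0.63, -0.49 and -0.73 in RCF lungs, against -0.10, -0.18 and -0.87 in Ctrl lungs. Ctrl replicates 1 and 2 lay above every fibre lung, and Ctrl replicate 3 within their range.

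Ect2, which is needed for cytokinesis, was the member with the smallest p in CCF lungs. It had -0.98, -1.28, -1.05 and -1.07 in VCF lungs, -1.16, -1.44 and -1.46 in CCF lungs and -1.55, -1.19, -1.12 and -1.09 in RCF lungs, against -0.92, -0.92 and -1.22 in Ctrl lungs. The CCF difference was -0.34 (SE 0.15, adjusted p = 0.75), with an overlap between CCF replicate 1 and Ctrl replicate 3.

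Mki67 codes for the Ki-67 protein that coats mitotic chromosomes and is the usual histological mark of cycling cells. It had 0.35, 0.26, 0.75 and 0.54 in VCF lungs, 0.65, 0.50 and 0.78 in CCF lungs and -0.17, 0.21, 0.57 and 0.33 in RCF lungs, against 1.23, 1.00 and 0.31 in Ctrl lungs. Ctrl replicates 1 and 2 were the highest of the 14, and Ctrl replicate 3 lay inside the VCF and RCF ranges. The difference was -0.37 (SE 0.23, adjusted p = 0.753) in VCF lungs, -0.20 (SE 0.24, adjusted p = 0.924) in CCF lungs and -0.61 (SE 0.23, adjusted p = 0.853) in RCF lungs. These values are of the brighter Mki67 probe. The dimmer probe, well above background on all 14 arrays, differed by -0.10 in VCF lungs (SE 0.25) and -0.52 in RCF lungs (SE 0.25). In CCF lungs it had the opposite sign, at 0.13 (SE 0.26). It overlapped Ctrl lungs in each fibre group.

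Top2a, the topoisomerase that untangles sister chromatids, had the highest difference of the 43 genes in CCF lungs. Its brighter probe had -4.69, -4.53, -4.63 and -4.68 in VCF lungs, -4.38, -3.95 and -3.84 in CCF lungs and -5.47, -4.48, -4.51 and -4.80 in RCF lungs, against -3.76, -4.45 and -5.25 in Ctrl lungs. The CCF difference was 0.43 (SE 0.33, adjusted p = 0.854), and the Ctrl lungs alone spanned most of the range. A second probe, well above background on 5 of 14 arrays, ran the other way, and the mean over both probes differed by -0.39 in CCF lungs.

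**Figure D4:**
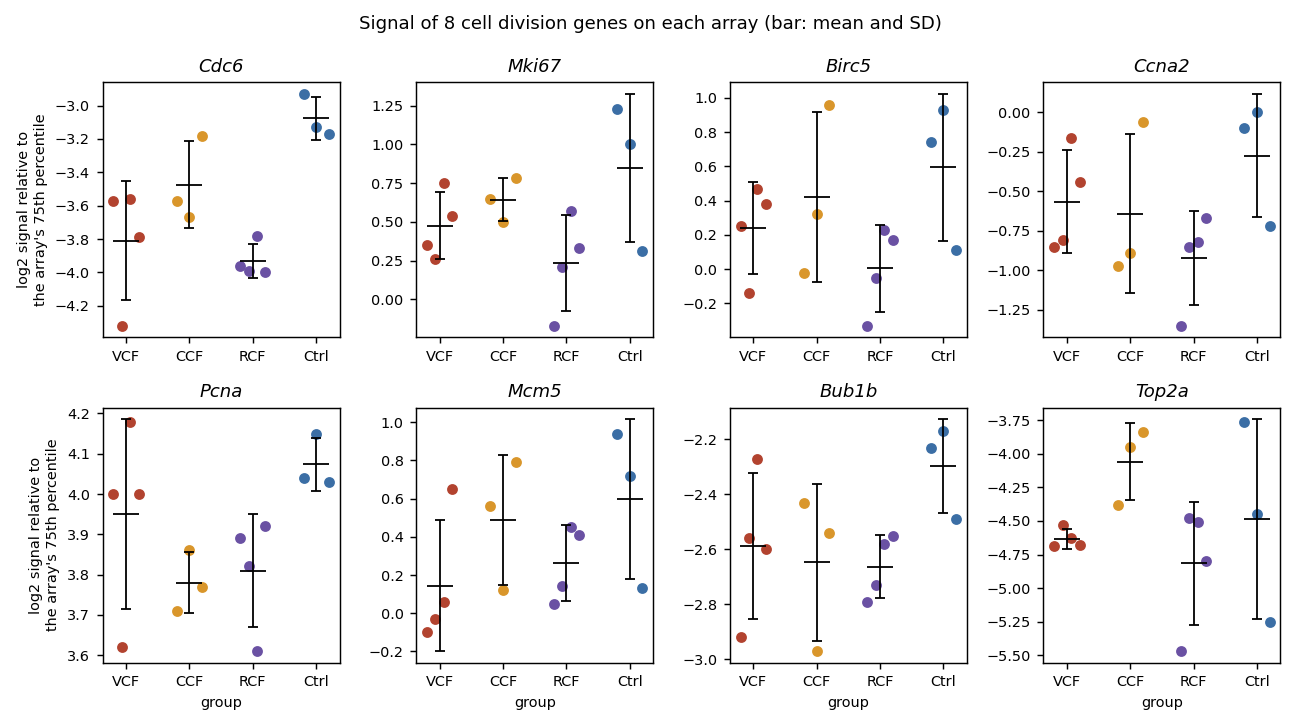
Level (log2 signal minus the log2 75th percentile) of single cell division genes in each mouse, with bars for group means and SD and a vertical axis of its own for each gene. Ctrl replicate 3 lies among the fibre lungs for most genes shown, and Cdc6 has all fibre lungs below all Ctrl lungs.

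Of the 45 genes, 30 had 1 probe, 13 had 2 and 2 had 3. The 13 further tested probes of 12 genes were lower in 13 cases in VCF lungs, 11 in CCF lungs and 13 in RCF lungs, with medians of -0.27 in VCF lungs, -0.20 in CCF lungs and -0.52 in RCF lungs. They share the mice and the RNA of the first probes.

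The fibres were also set against each other. The median difference over members was 0.07 in CCF against VCF lungs, with 17 of 43 genes below 0 (52.8% of all genes), and no member passed (0% of all genes), the smallest adjusted p in limma being 0.882. It was -0.09 in RCF against VCF lungs, with 31 of 43 below 0 (47.4%), no member passing (0%) and a smallest adjusted p of 0.977. It was -0.16 in RCF against CCF lungs, with 32 of 43 below 0 (44.6%), no member passing (0%) and a smallest adjusted p of 0.58.

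At an unadjusted p under 0.05, 0 of 43 members differed in CCF against VCF lungs (2.85% of all genes were lower and 1.02% higher) and 0 in RCF against VCF lungs (1.28% lower and 1.77% higher). In RCF against CCF lungs, Cdc6 and Top2a were lower, 2 of 43 (2.69%), and none was higher (5.16%). Cdc6 differed by -0.46 there (SE 0.18, adjusted p = 0.58). Its dimmer probe differed by 0.10 (SE 0.19) and the dimmer Top2a probe by 0.51 (SE 0.62) in that comparison, both with overlap. Bub1 and Top2a had every CCF lung above every VCF lung, 2 of 43 (1.24% of all genes), and no member had the reverse (2.61%). Their dimmer probes ran the other way in CCF against VCF lungs, by -0.17 for Bub1 (SE 0.14) and -0.38 for Top2a (SE 0.62), with overlap. At its brightest probe, no member was free of overlap in RCF against VCF lungs (1.26% of all genes lower and 1.58% higher). Dimmer probes of Ccnb1 (-0.54) and Mki67 (-0.43) lay wholly lower in that comparison. In RCF against CCF lungs 2 of 43 lay wholly lower at their brightest probe (3.09%) and none wholly higher (6.94%). Dimmer probes of Cdca8 (-1.47, SE 0.56) and Mki67 (-0.66, SE 0.25) also lay wholly lower there. Without CCF replicate 3, the RCF against CCF median was -0.01 and the CCF against VCF median -0.07.

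Relative to each gene's mean over the 14 arrays, the median on CCF replicate 3 was 0.04 for replication forks and licensing, 0.21 for nucleotide supply and 0.28 to 0.47 for cyclins, checkpoint, kinetochore, spindle and chromosome genes. Of its 9 replication genes, Mcm2 (-0.65) and Cdc45 (-3.85) were the highest of the 14 arrays and Mcm4 (2.94) was the lowest. RCF replicate 1, the lowest array over all members, had -0.10 for replication forks and licensing, -0.28 for nucleotide supply and -0.39 to -0.82 for the mitotic and chromosome roles.

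Alveolar macrophage markers stood lower in each fibre group, as the members did in the median, but the order of the groups differed. All 9 markers were well above background on all arrays. In each fibre group 9 of 9 differed below 0, where 54.2%, 58.7% and 50.3% of all genes did in VCF, CCF and RCF lungs. Median differences from Ctrl were -0.34 in VCF lungs, -0.58 in CCF lungs and -0.28 in RCF lungs, where the members had -0.24, -0.19 and -0.33. The markers were thus lowest in CCF lungs and the members in RCF lungs. None of the 9 markers passed the adjusted threshold in limma. At an unadjusted p under 0.05, 3 of them were lower in VCF lungs (2.79% of all genes), 6 in CCF lungs (3.12%) and 3 in RCF lungs (3.03%). Their mean level per array, relative to Ctrl, was -0.47 to -0.19 in VCF lungs, -0.73 to -0.40 in CCF lungs and -0.31 to -0.18 in RCF lungs, against -0.12 to 0.08 in Ctrl lungs, without overlap. Their summed level did overlap, at 170 to 220 in VCF lungs, 141 to 199 in CCF lungs and 188 to 208 in RCF lungs, against 198 to 240 in Ctrl lungs. The part of alveolar macrophages in the members' levels was not tested.

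The summed level of 6 mature T cell markers, all well above background on all arrays, was 8.01, 6.95, 12.7 and 14.3 in VCF replicates 1 to 4, 11.1, 11.1 and 14.3 in CCF replicates 1 to 3 and 9.99, 11.9, 10.3 and 13 in RCF replicates 1 to 4, against 12.8, 16.3 and 8.26 in Ctrl replicates 1 to 3. Ctrl replicate 3, whose cell division genes were low, had the lowest T cell sum of the Ctrl lungs. CCF replicate 3, whose mitotic genes were high, also stood apart for 7 thymus and immature T cell markers, with a sum of 4.08 and 6 of 7 above background, where the next highest array, CCF replicate 2, had 1.43. Rag2 was not well above background on any array. The part of T cells in the members' levels was not tested. With VCF replicate 1, CCF replicates 2 and 3 and RCF replicate 1 left out, all high in adipose, liver or thymus transcripts, the median differences from Ctrl were -0.20 in VCF lungs, -0.23 in CCF lungs (then 1 mouse) and -0.27 in RCF lungs, where the count at an unadjusted p under 0.05 was 1 (2.35% of all genes) in place of 8.

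**Figure D5:**
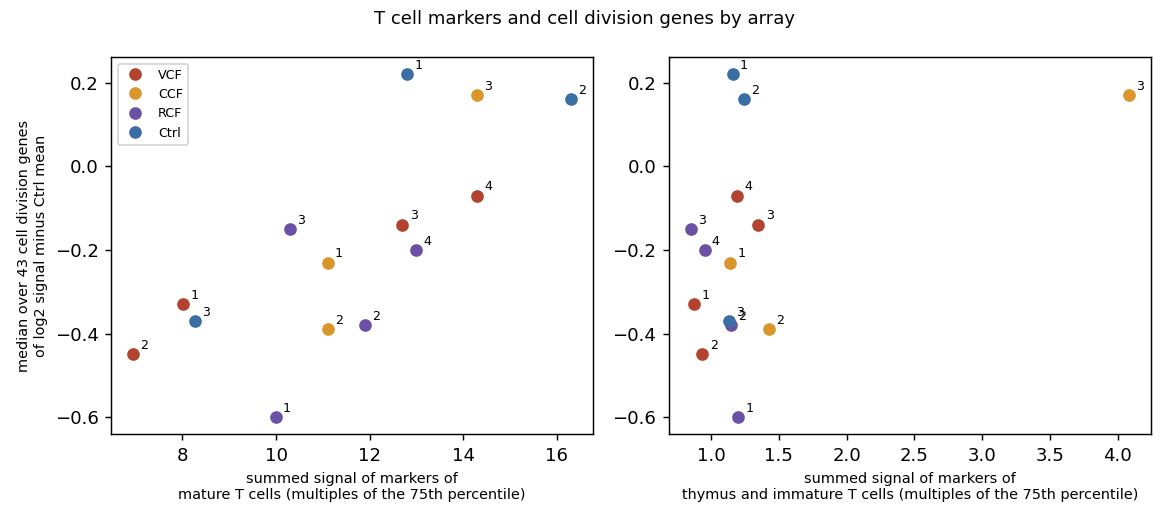
Median of the 43 cell division genes on each array (minus the Ctrl mean, log2, vertical) against the summed level of 6 mature T cell markers (left) and 7 thymus and immature T cell markers (right; 1 is the 75th percentile signal, horizontal), 1 point per array. The lowest mature T cell sums, 6.95 to 8.26, belong to VCF replicates 2 and 1 and Ctrl replicate 3, with cell division medians of -0.45, -0.33 and -0.37, but RCF replicate 1, at the lowest median of -0.60, has a sum of 9.99, and CCF replicate 2 (-0.39) and RCF replicate 2 (-0.38) have 11.1 and 11.9.

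A wider list of 103 cell cycle genes outside the 45 was examined, of which 97 were on the array and 96 were tested. They cover origin recognition, the replisome, DNA repair at forks, other cyclins, condensin and cohesin, and further kinetochore and spindle genes. None passed in limma in VCF, CCF or RCF against Ctrl lungs. Differences were below 0 for 79 in VCF lungs, 77 in CCF lungs and 77 in RCF lungs, with medians of -0.17, -0.19 and -0.18, where 54.2%, 58.7% and 50.3% of all genes were below 0. At an unadjusted p under 0.05, 4 of 96 were lower in VCF lungs (2.79% of all genes), 12 in CCF lungs (3.12%) and 18 in RCF lungs (3.03%), and 0 were higher in each. The count in VCF lungs is near the share of all genes.

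The named genes of that list, those with the smallest p in each comparison, varied in size. Gmnn, geminin, which blocks a second round of licensing, differed by -0.41 in VCF lungs (SE 0.18, adjusted p = 0.583). Brca2, of recombination repair, differed by -0.37 in CCF lungs (SE 0.13, adjusted p = 0.644). Orc1, a subunit of the origin recognition complex, was the other gene so named in CCF lungs, but no size is given for it. It exceeded its background clearly in 1 of 4 VCF, 0 of 3 CCF and 0 of 4 RCF lungs, against 3 of 3 Ctrl lungs. It thus met the signal filter only through the Ctrl lungs. Wee1, the kinase that holds Cdk1 inactive, differed by -0.82 in RCF lungs (SE 0.20, adjusted p = 0.436), and Ccne2, a cyclin of the G1/S step, by -0.64 (SE 0.18, adjusted p = 0.585). RCF lungs did not overlap Ctrl lungs for Wee1 and Ccne2.

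Cell cycle inhibitors and genes linked to arrest stood close to Ctrl in the median. Of 19 such genes tested, 10 were below 0 in VCF lungs (54.2% of all genes), 11 in CCF lungs (58.7%) and 10 in RCF lungs (50.3%). These counts are near the shares of all genes. The medians were -0.01, -0.02 and -0.01. Cdkn2c, the inhibitor p18, was above Ctrl in VCF lungs by 0.31 (SE 0.14, adjusted p = 0.569) and in RCF lungs by 0.32 (SE 0.14, adjusted p = 0.919), and differed by 0.00 in CCF lungs.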

How the data were processed

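RNA of 14 mouse lungs was measured on single-colour Agilent arrays, and per the file headers the scans were read with Agilent Feature Extraction version 10.7.3.1 on a grid of build mm9:NCBI37:Jul2007. The deposited processed signal is an intensity after the scanner software's background subtraction, and the deposited flags mark spots well above background, saturated spots and outliers. The authors' value table is on a log2 scale and equalled log2 processed signal minus 1 constant per array within 0.01, close to the array's 75th percentile, so its scale and direction are known. The files hold no columns of other samples.

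Control and outlier-flagged spots were left out, spots of a probe averaged, and log2 signal was taken relative to each array's 75th percentile. Probes well above background on at least 3 of 14 arrays were tested with limma 3.58.1 in R 4.3.3, all 4 groups in 1 model (10 residual and 2.39 prior degrees of freedom), two-sided, with Benjamini-Hochberg adjustment over 29269 probes. The 14 lungs count as independent mice per the labels, and their number limits the precision. Accessions gave 1 symbol for 24844 probes and none or several for 16330. A gene is represented by its brightest tested probe. The script was tested on simulated data.

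The members and all gene lists were chosen with earlier results of these data known. Genes named are a panel of 8 (Mki67, Top2a, Mcm5, Pcna, Ccnb1, Cdk1, Aurka, Birc5), the 5 with the smallest p in each direction against Ctrl (3 between fibres) and 2 of the wider list. Tk1, Mcm4, Ube2c and the genes named beside a count were added after their values were seen. Alternatives were a replicate block, a slide block, within-slide values, normexp (on median spot and background signals, offset 50), quantile scaling, no signal filter, the mean over probes, each array left out, 4 arrays high in adipose, liver or thymus transcripts left out, only the compared groups in the model, the authors' table and, chosen after seeing the data, scaling on the median probe. Promoters are from RefSeq (GRCm38.p6), and figures were drawn in Python 3.11.15 with matplotlib 3.10.9.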

Additional observations from a re-analysis of the deposited data

Results flagged for a closer look

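Bub1 in VCF lungs had 1 array far from the other 3: VCF replicate 2 had a level of -1.89, the nearest of the others -1.35 and the farthest -1.28, so that the gap to the nearest was 0.894 of the range, above Dixon's 95% critical value for 4 samples. It was the 1 such case in 88 groups of 4 mice examined, where chance gives about 1 in 20.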

How the results depend on the processing

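No member passed the adjusted threshold under any alternative run. The median differences of VCF, CCF and RCF from Ctrl lungs stayed below 0 with quantile scaling (-0.29, -0.18, -0.35), normexp (-0.11, -0.23, -0.23, with all-gene medians of -0.01, -0.10, 0), median scaling (-0.29, -0.25, -0.35, with all-gene medians of -0.07, -0.10, -0.02) and each array left out (-0.44 to -0.15, -0.37 to -0.10, -0.56 to -0.23). Over all fibres they ran from -0.47 to -0.18, in CCF against VCF from -0.07 to 0.21, in RCF against VCF from -0.16 to 0 and in RCF against CCF from -0.28 to -0.01. Within slide 1 the medians were 0.17 for VCF, 0.50 for CCF and 0.14 for all fibres against Ctrl, -0.49 for RCF against VCF and -0.70 for RCF against CCF, and within slide 3 they were -0.64 for VCF against Ctrl and 0.31 for RCF against VCF. With the replicate number as a block, medians were -0.31, -0.19 and -0.38 in VCF, CCF and RCF against Ctrl, and members lower at an unadjusted p under 0.05 numbered 4, 0 and 9 (3.59%, 2.74% and 3.14% of all genes). Deviations of same-numbered arrays correlated at -0.37 to 0.35 over 19 pairs (median 0.05, against 0.005 for other pairs), which gave no sign that the numbers pair mice. Arrays on the same slide correlated at -0.02 to 0.43 over 18 pairs (median 0.125, against -0.08 on different slides), and the main model holds no slide term. Single genes changed sign as follows, and the cause was not tested. Under normexp, Top2a (0.06) and Cdk1 (0.02) did so in VCF against Ctrl, Top2a (-0.37), Cdc45 (-0.49) and Rrm2 (-0.20) in CCF against Ctrl, Pcna (0.08), Tyms (0.02), Top2a (-0.44), Cdc6 (-0.40) and Bub1 (-0.07) in CCF against VCF, Aurkb (-0.11) in RCF against VCF, and Cdc6 (0.27), Top2a (0.34) and Mcm6 (-0.07) in RCF against CCF. Under quantile scaling Cdc45 (-0.04) and Rrm2 (-0.04) did so in CCF and Cenpa (-0.01) in RCF against Ctrl, and with the slide block Mcm5 (0.08) in CCF and Cenpa (-0.03) in RCF against Ctrl. With the mean over probes they were Top2a in CCF against Ctrl (-0.39) and Ect2 in CCF against VCF (0.05) and in RCF against CCF (-0.10). With the 4 arrays high in adipose, liver or thymus transcripts left out, Rrm2 had -0.12 in CCF against Ctrl and Mcm6 -0.02 in RCF against CCF, and with median scaling Rrm2 had -0.03 in CCF against Ctrl. Leaving out 1 array at a time gave Top2a -0.53 to 0.22 in VCF, -0.71 to 0.04 in RCF and -0.40 to 0.35 in all fibres against Ctrl, Mcm5 -0.34 to 0.08, Cdc45 -0.11 to 0.28, Rrm2 -0.35 to 0.36 and Birc5 -0.44 to 0.05 in CCF against Ctrl, and Nek2 -0.16 to 0.33 and Cenpa -0.15 to 0.14 in RCF against Ctrl. Signal over background limits the dim probes, such as the second Top2a probe and Orc1.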

Other observations

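Markers of other blood cells were also summed for each mouse, on the scale where 1 is the 75th percentile signal. The summed level of neutrophil and precursor markers was 83.7 to 213 in VCF lungs, 161 to 281 in CCF lungs and 61.7 to 161 in RCF lungs, against 407, 136 and 88.7 in Ctrl replicates 1, 2 and 3. Red blood cell and precursor markers summed to 349 to 419 in VCF lungs, 164 to 478 in CCF lungs and 256 to 351 in RCF lungs, against 80.3 to 151 in Ctrl lungs, without overlap of the sums. Their mean log2 level relative to Ctrl did overlap, at 0.03 and 0.11 in CCF replicates 2 and 3, against 0.46 in Ctrl replicate 1, and 1 of the 6 markers differed by -0.94 in CCF lungs. B and plasma cell markers summed to 24 to 52.6 in VCF lungs, 25.8 to 39.3 in CCF lungs and 35.2 to 56.3 in RCF lungs, against 27 to 65.5 in Ctrl lungs. These sums were not tested.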
